A study of Homo sapiens with 16 samples.

Results

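The 4 human HOX clusters, HOXA to HOXD, were examined in peak lists of 3 histone H3 modifications from 2 breast cell lines. Members were chosen by position: a peak belonged to a cluster when it overlapped 1 of 4 windows on hg19, chr7:27130000-27250000 for HOXA, chr17:46600000-46810000 for HOXB, chr12:54330000-54450000 for HOXC and chr2:176955000-177060000 for HOXD. The windows held 230 of the 192665 peaks in the 12 lists, and 38 HOX genes were followed: 10 of HOXA, 10 of HOXB, 9 of HOXC and 9 of HOXD. The windows were not chosen by a measured value. MCF-10A is a non-tumorigenic breast epithelial line whose label gives luminal ductal cells, and MDA-MB-231 is a breast cancer line derived from a metastatic site. Both came from stocks kept in the laboratory, each is a single established line, and the labels list no treatment for either. MCF-10A was grown with EGF, insulin, cholera toxin and hydrocortisone, so medium and line cannot be told apart. Chromatin immunoprecipitation and sequencing of H3K4me3, H3K27me3 and H3K9me2 covered each mark in each line with 2 replicates, named as biological in the labels. RNA was not among the measurements, so no value below is a level of a HOX transcript.

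HOX genes encode homeodomain transcription factors that give cells their position along the head to tail axis. In each cluster the genes lie in the order of their domains in the embryo, from anterior paralog groups such as that of HOXB1, which acts in the hindbrain, to posterior ones such as those of HOXA13 and HOXD13, which act in the distal limb and the urogenital tract. Silent HOX genes are classic targets of Polycomb complexes, which deposit H3K27me3. Active HOX genes carry H3K4me3, placed by Trithorax-type enzymes such as MLL1, while H3K9me2 marks another kind of silent chromatin.

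HOX promoters are rich in the dinucleotide CG, in which Polycomb targets in mammals are known to abound. The promoters of 3 members are shown here, from posterior and anterior ends of clusters that differed between the lines, as the 250 bases before the gene start from RefSeq on GRCh38.p14. Capitals mark each CG, which reads the same on both strands. HOXA13 is at chr7:27200092-27200341 on the minus strand, HOXD13 at chr2:176092471-176092720 and HOXD1 at chr2:176188418-176188667, both on the plus strand. These coordinates are not on the build of the peaks.
HOXA13: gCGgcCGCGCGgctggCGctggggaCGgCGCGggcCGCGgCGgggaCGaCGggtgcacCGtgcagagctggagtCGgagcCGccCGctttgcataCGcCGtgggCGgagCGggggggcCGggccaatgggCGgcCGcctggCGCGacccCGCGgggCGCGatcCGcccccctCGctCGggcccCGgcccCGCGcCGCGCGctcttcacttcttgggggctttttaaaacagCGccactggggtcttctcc
HOXD13: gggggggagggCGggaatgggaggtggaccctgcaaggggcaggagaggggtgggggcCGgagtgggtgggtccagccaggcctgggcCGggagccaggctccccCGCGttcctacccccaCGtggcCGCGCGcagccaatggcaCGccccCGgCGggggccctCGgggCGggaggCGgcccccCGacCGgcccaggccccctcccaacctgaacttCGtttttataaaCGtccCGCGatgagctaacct
HOXD1: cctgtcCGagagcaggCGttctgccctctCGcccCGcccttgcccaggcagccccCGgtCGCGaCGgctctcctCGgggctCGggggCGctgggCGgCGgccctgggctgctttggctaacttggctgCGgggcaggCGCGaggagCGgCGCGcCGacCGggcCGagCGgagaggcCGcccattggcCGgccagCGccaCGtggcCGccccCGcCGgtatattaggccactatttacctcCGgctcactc
The 3 sequences held 40, 21 and 31 CG. In the table of 300-base promoters, 250 bases before to 50 after the start, 20 of the 38 members had an entry. Their median ratio of observed to expected CG was 0.865, against 0.563 over all 27305 genes with an entry. The ratio was at least 0.6 in 18 of the 20 members (90.0%) and in 47.9% of all genes, and 96.2% of all genes had a promoter with at least 1 CG. HOXA9, a posterior gene with roles in blood cell development, had the highest ratio at 1.27, and HOXD4, an anterior gene, the lowest at 0.244. HOXC4 and HOXC5 have the same entry. HOXA5, HOXB2, HOXB3, HOXB4, HOXB5, HOXB6, HOXB7, HOXB8, HOXB9, HOXB13, HOXC6, HOXC8, HOXC9, HOXC10, HOXC11, HOXC12, HOXC13 and HOXD9 had none. Peaks are given below by position and not by gene, because no annotation of hg19 was used. RefSeq served only for the order of the genes, which from low to high coordinate runs from HOXA2 to HOXA13, from HOXB1 to HOXB13, from HOXC13 to the end with HOXC4, HOXC5 and HOXC6, and from HOXD13 to HOXD1.

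In MCF-10A the clusters fell into separate kinds. HOXA and HOXC carried mostly H3K4me3, HOXB and HOXD mostly H3K27me3. In MDA-MB-231 H3K4me3 was lower in HOXA and HOXC and higher in HOXD, and H3K27me3 was higher in HOXC by a test that did not hold under all settings. H3K9me2 was nearly absent from all 4 clusters. The H3K4me3 lists held 32 and 36 peaks in the windows in MCF-10A, and 13 in each MDA-MB-231 list. The H3K27me3 lists held 58 and 51 in MCF-10A, and 7 and 19 in MDA-MB-231. The first MDA-MB-231 H3K27me3 list is short, with 8470 peaks genome-wide against 30496 in the second, and no list gives read numbers from which depth could be read. The windows are 0.0183% of the genome length used.

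**Figure D1:**
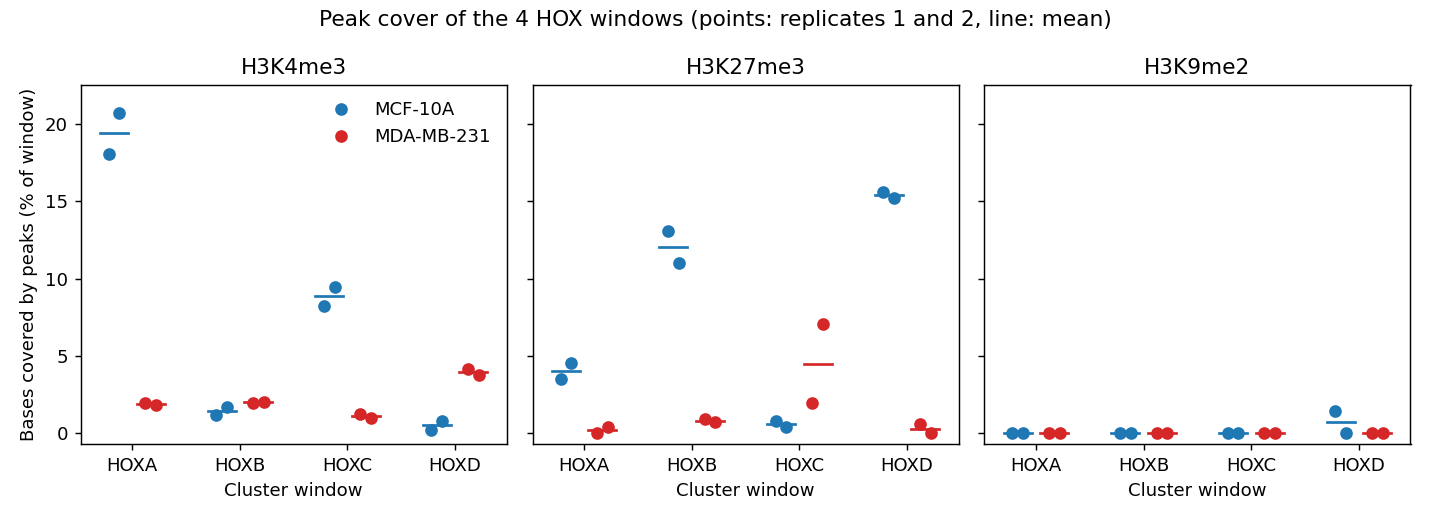
Share of each HOX window covered by peaks (percent of bases, y axis) for each mark, with MCF-10A in blue and MDA-MB-231 in red; points are replicates 1 and 2 and lines their mean. The MCF-10A points for H3K4me3 in HOXA (18.0% and 20.7%) and for H3K27me3 in HOXD (15.6% and 15.2%) stand far above those of MDA-MB-231, while H3K27me3 in HOXC is higher in MDA-MB-231.

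HOXA, which includes HOXA5 and HOXA9 between the anterior HOXA2 and the posterior HOXA13, was the cluster with most H3K4me3 in MCF-10A. Peaks covered 18.0% and 20.7% of the window in the 2 MCF-10A replicates and 1.93% and 1.85% in MDA-MB-231. The lines did not overlap, with means of 19.4% ± 1.90 (SD, n = 2) and 1.89% ± 0.0583 (SD, n = 2). With 2 lists against 2, the exact two-sided permutation test gave p = 0.333, the smallest it can reach, here and in every comparison of cover whose lists did not overlap. A model across all features has more power: enrichment, the covered share of a window divided by the covered share of the genome in the same list, was compared with 100 kb tiles of the genome in limma. H3K4me3 enrichment of HOXA fell by 3.35 on the log2 scale in MDA-MB-231 (SE 0.0574, limma adjusted p = 0.000825). In MCF-10A its mean enrichment of 28.0 ranked 4 among 30357 features, and in MDA-MB-231 its 2.65 ranked 4682. That ratio is on the scale of log2 of enrichment plus 0.1, as are all log2 ratios below, and this scale understates changes of low values.

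Of 20 merged H3K4me3 regions in HOXA, 15 had a peak in both MCF-10A lists and in neither MDA-MB-231 list, and none had the reverse. The widest, chr7:27134915-27137340 (2426 bp), had the deposited score of 3100 in both MCF-10A lists, a value that many peaks of these lists share. The score is the authors' own value per peak, on a scale that the labels do not state. The region chr7:27181264-27183548 had 3100 in both MCF-10A lists as well. The regions found in both lines were chr7:27200126-27201141, with scores of 447 and 1079 in MCF-10A and 270 and 172 in MDA-MB-231, and chr7:27239094-27240643, with 438 and 585 against 410 and 576. The second of these, toward the HOXA13 end, is the one HOXA region at which the deposited scores of the lines overlapped.

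H3K27me3 in HOXA lay at the HOXA13 end. It covered 3.51% and 4.56% of the window in MCF-10A, was listed at 0 in the first MDA-MB-231 list and covered 0.388% in the second. Its widest region, chr7:27237745-27239347 (1603 bp), had scores of 352 and 240 in MCF-10A and no peak in MDA-MB-231. The lines did not overlap, but the log2 ratio of -4.44 (SE 1.20) did not pass the test (limma adjusted p = 0.0663). With an MDA-MB-231 list at 0, its size depended on the added constant. It was -5.67 with 0.02 and -3.05 with 0.5 in place of 0.1.

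HOXB, which runs from the hindbrain gene HOXB1 to HOXB13, a gene of the prostate and hindgut, carried mostly H3K27me3 in MCF-10A. H3K27me3 covered 13.1% and 11.01% of the window there and 0.903% and 0.732% in MDA-MB-231, without overlap. Peaks with a score of at least 100 numbered 12 in each MCF-10A list and 0 in each MDA-MB-231 list. The log2 ratio of -2.89 (SE 0.776) missed the threshold (limma adjusted p = 0.0654). The widest region, chr17:46802165-46807912 (5748 bp), lay toward the HOXB13 end and had scores of 535 and 587 in MCF-10A and 59.1 and 67.4 in MDA-MB-231. Of the 41 H3K27me3 regions, 10 were in both MCF-10A lists alone and 3 in all 4 lists, and no other window had an H3K27me3 region in all 4. The last of these 3, chr17:46809604-46811001, runs past the window end, and 2 of its lists have their peak beyond it, so 2 regions are left when only peaks that touch the window are merged.

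H3K4me3 covered little of HOXB in either line, 1.22% and 1.73% in MCF-10A and 1.99% and 2.04% in MDA-MB-231. These values did not overlap, and the log2 ratio of 0.41 (SE 0.152) did not pass the test (limma adjusted p = 0.173). The positions differed between the lines more than the amounts. The region chr17:46620271-46622208, toward the HOXB1 end, had scores of 329 and 884 in MCF-10A and no peak in MDA-MB-231. The widest region, chr17:46702053-46704097 (2045 bp), had scores of 1745 and 2541 in MDA-MB-231, 151 in the second MCF-10A list and no peak in the first. It overlaps H3K27me3 of MCF-10A at chr17:46700270-46703108, where the scores were 484 and 266.

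HOXC runs from HOXC13, which acts in hair and nail, to HOXC4, HOXC5 and HOXC6 at the other end. H3K4me3 covered 8.22% and 9.47% of it in MCF-10A and 1.24% and 1.01% in MDA-MB-231, without overlap. Its enrichment fell by 2.94 on the log2 scale in MDA-MB-231 (SE 0.120, limma adjusted p = 0.000825). Of 9 H3K4me3 regions, 6 were in both MCF-10A lists alone and 2 in all 4 lists. The widest, chr12:54366691-54368973 (2283 bp), had scores of 1073 and 1939 in MCF-10A and no peak in MDA-MB-231. The region chr12:54332534-54334564, near the HOXC13 end, had 3100 in both MCF-10A lists.

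H3K27me3 in HOXC was the one repressive mark higher in MDA-MB-231. It covered 0.771% and 0.392% in MCF-10A and 1.94% and 7.07% in MDA-MB-231, so the lines did not overlap, and the MDA-MB-231 lists stood far apart. Scaled to the genome-wide cover of each list, the enrichment was 9.0 and 10.9 in MDA-MB-231 and 1.09 and 0.556 in MCF-10A. The enrichment rose by 3.51 on the log2 scale (SE 0.525, limma adjusted p = 0.0165). Without scaling to the genome-wide cover, the ratio was 2.55 and no longer passed (limma adjusted p = 0.119). With scores of at least 100 it was 6.85 and passed, but both MCF-10A lists then had 0 peaks and were fixed by the added 0.1. It rested on 1 peak of the first MDA-MB-231 list, chr12:54348816-54349587, and 2 of the second. Those 2 peaks, chr12:54440310-54441074 and chr12:54444958-54445762, lay toward the opposite end of the window. The 2 MDA-MB-231 lists shared no base here. The 3 peaks of the first lay 1495, 242 and 362 bp from the nearest of the 15 peaks of the second, so they fell in the same stretch toward the HOXC13 end but not on the same bases. The widest region, chr12:54330342-54331282 (941 bp), had a score of 81.6 in the first MDA-MB-231 list alone. None of the 18 H3K27me3 regions was in both MDA-MB-231 lists.

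HOXD, whose posterior genes HOXD9 to HOXD13 pattern the limb, was the reverse of HOXA in MCF-10A. H3K27me3 covered 15.6% and 15.2% of it there, 0.607% in the first MDA-MB-231 list and was listed at 0 in the second. The log2 ratio of -5.34 (SE 2.00) missed the threshold (limma adjusted p = 0.128), although the lists did not overlap. Its size also depended on the added constant, at -6.52 with 0.02 and -4.11 with 0.5 in place of 0.1. The widest region, chr2:176980572-176983369 (2798 bp), had scores of 370 and 343 in MCF-10A. H3K27me3 peaks with a score of at least 100 numbered 8 and 9 in MCF-10A and 0 in both MDA-MB-231 lists.

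H3K4me3 covered 0.245% and 0.809% of HOXD in MCF-10A and 4.17% and 3.77% in MDA-MB-231. The lines did not overlap, and the enrichment rose by 2.90 on the log2 scale (SE 0.502, limma adjusted p = 0.0301). With windows widened by 20 kb on each side the ratio was 2.62 and did not pass (limma adjusted p = 0.0704). The ratio was 2.22 without the first MCF-10A list and 3.58 without the second, each a fit with a lone MCF-10A list. With scores of at least 100 the ratio was 4.62 and passed. Most of the MDA-MB-231 signal came from chr2:177052347-177054830 (2484 bp), toward the HOXD1 end, with scores of 2221 and 2689 and no H3K4me3 peak in MCF-10A. A second region, chr2:177016272-177016954, had scores of 177 and 439 in MDA-MB-231 and lay on H3K27me3 of MCF-10A with scores of 91.9 and 160.

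**Figure D2:**
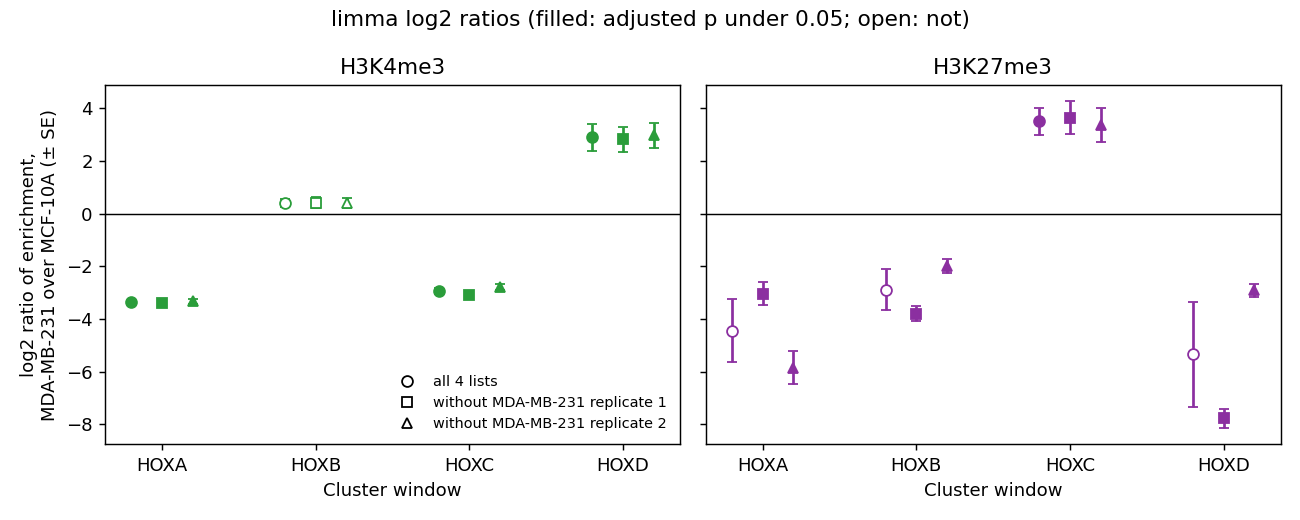
log2 ratio of enrichment of each HOX window in MDA-MB-231 over MCF-10A (y axis, bars are ± SE) for H3K4me3 and H3K27me3, from all 4 lists and without either MDA-MB-231 list; filled symbols have a limma adjusted p under 0.05. H3K4me3 lies at -3.35 in HOXA and 2.90 in HOXD, and for H3K27me3 only HOXC, at 3.51, is filled with all 4 lists. Fits without an MDA-MB-231 list rest on a lone list of that line, so their error leaves out the disagreement between its lists.

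Read against all features, 2 of the 4 windows were called higher in MCF-10A for H3K4me3, where 8.92% of 9465 tested features were, and 1 higher in MDA-MB-231, where 9.93% were. For H3K27me3, none of the 4 was called higher in MCF-10A, where 35.7% of 7360 tested features were, and 1 was called higher in MDA-MB-231, where 11.4% were. The median log2 ratio over all features was 0.00 for H3K4me3 and -1.80 for H3K27me3, and -2.07 without scaling. Relative to the median of -1.80, the H3K27me3 ratios were -2.65 in HOXA, -1.10 in HOXB, 5.30 in HOXC and -3.54 in HOXD. Those of HOXA and HOXD depend on the added constant, as an MDA-MB-231 list had no peak in each. Without the short first MDA-MB-231 list the H3K27me3 ratios were -3.04 in HOXA, -3.79 in HOXB, 3.65 in HOXC and -7.77 in HOXD. Without the second they were -5.85, -1.99, 3.37 and -2.91. The -7.77 of HOXD and the -5.85 of HOXA compare MCF-10A with a lone list that had no peak there. Their sizes depend on the added 0.1. Without the first MCF-10A list the ratios were -4.63 in HOXA, -2.77 in HOXB, 3.93 in HOXC and -5.33 in HOXD. Without the second MCF-10A list they were -4.25, -3.01, 3.08 and -5.35. A fit without 1 list leaves a lone list in 1 line, which is assumed to vary as the lists of the other line do. With an MDA-MB-231 list left out, the disagreement between the MDA-MB-231 lists no longer enters the error. No p is given for these fits.

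Over the 4 windows, 22 of 40 H3K4me3 regions (55.0%) were in both MCF-10A lists alone, a class that held 5.91% of 18048 regions genome-wide. The reverse class held 4 regions (10%, against 6.27%) and regions in all 4 lists numbered 6 (15.0%, against 68.5%). For H3K27me3, 22 of 88 regions (25.0%) were in both MCF-10A lists alone, against 11.1% of 66286 regions. None was in both MDA-MB-231 lists alone, against 2.99%, and 3 (3.41%) were in all 4, against 1.77%. Merging only peaks that touch a window, an alternative added after seeing the data, gave 21, 0 and 2 of 88 H3K27me3 regions in these classes and the same H3K4me3 counts. Without the first or the second MCF-10A H3K27me3 list, 46 or 53 regions were in MCF-10A alone, and without the first or the second MDA-MB-231 list, 14 or 3 were in MDA-MB-231 alone. Neighbouring regions share chromatin and are not replicates, so these shares carry no test.

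**Figure D3:**
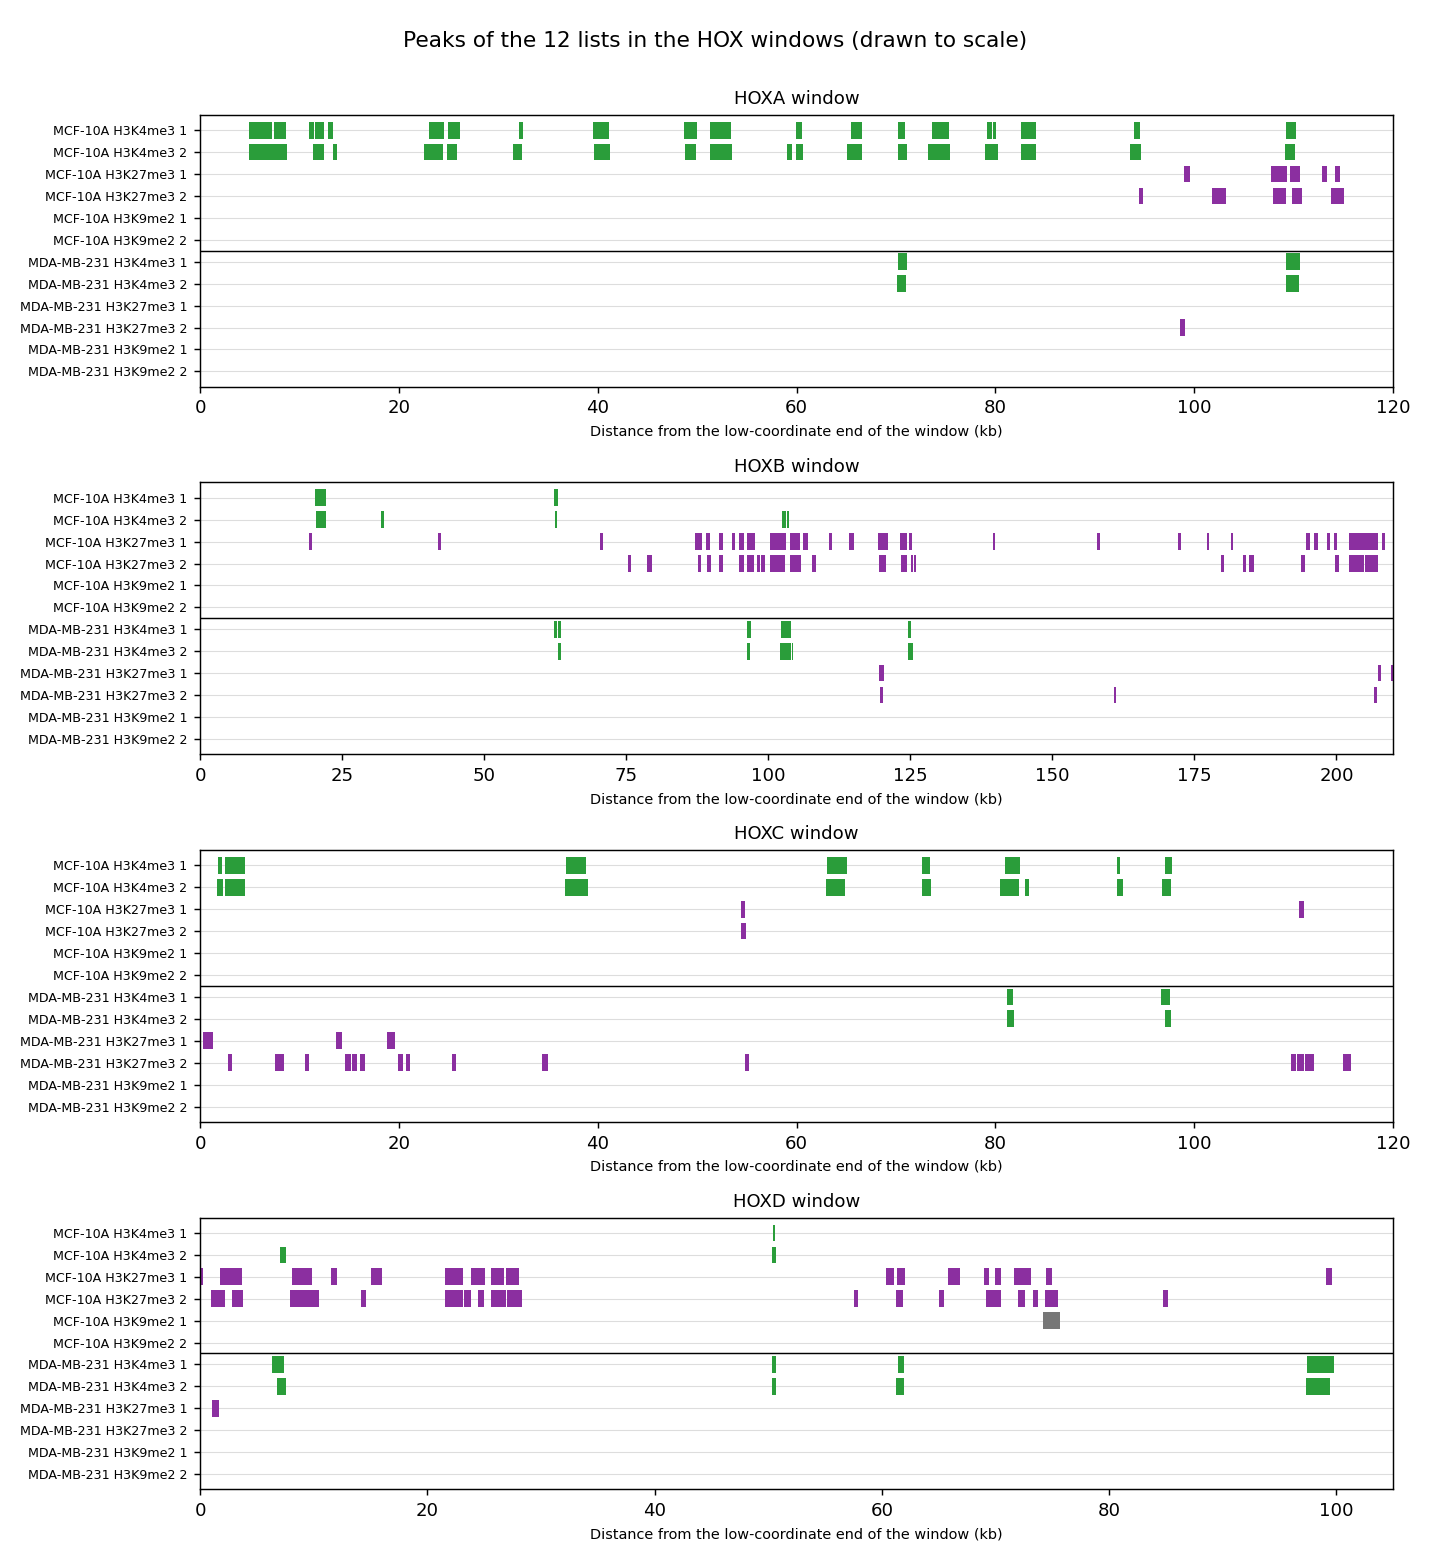
Peaks of the 12 lists along the 4 HOX windows (x axis, kb from the low-coordinate end), with H3K4me3 in green, H3K27me3 in purple and H3K9me2 in grey; each row is a list, MCF-10A above the black line. In HOXA the green peaks of MCF-10A run across most of the window toward the purple ones at the high end, where 1 further green peak lies among them, and HOXD shows purple blocks in MCF-10A that are nearly missing in MDA-MB-231.

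Borders between the marks were drawn from bases covered in both replicates of a line, in pieces of at least 200 bp, with pieces of 1 mark joined across gaps of up to 10 kb when the other mark did not lie between. MCF-10A had 8 borders in the 4 windows. In HOXA an H3K4me3 stretch of 71.5 kb with 14 pieces, chr7:27153009-27224554, ended 13322 bp before H3K27me3 began at 27237877. Toward HOXA13 the marks then alternated: H3K27me3 to 27239189, H3K4me3 from 27239172 to 27240156, and H3K27me3 from 27239860 to 27244645. These last 2 borders overlapped by 18 and 297 bp, so 315 bases carried both marks in both MCF-10A replicates. The gap of 13322 bp depended on requiring both replicates. Counting either replicate, H3K27me3 began at 27224415 and overlapped H3K4me3 by 185 bp there. ChIP from a cell population does not show whether both marks sat on the same chromosome copy.

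The other borders of MCF-10A were gaps in which neither mark was shared by both replicates. In HOXB H3K4me3 ended at 46662848 and H3K27me3 began 24803 bp further, in a stretch of 18.0 kb with 10 pieces, chr17:46687652-46705607. In HOXC a lone H3K27me3 piece of 431 bp, chr12:54384405-54384835, stood 15607 bp after 1 H3K4me3 stretch and 8261 bp before the next, chr12:54393097-54427646. In HOXD a lone H3K4me3 piece of 257 bp, chr2:177005384-177005640, stood between H3K27me3 stretches at gaps of 22355 and 10733 bp. Single MCF-10A lists had H3K27me3 peaks inside some of these gaps. Counting either replicate, the HOXB gap of 24803 bp became 7439 bp and the HOXD gap of 10733 bp became 6871 bp. With peaks scored at least 100, the 3 HOXA borders kept their positions. The HOXC and HOXD borders were lost, and the HOXB border then ran from 46622186, so 4 borders were left.

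MDA-MB-231 had 2 borders, both in HOXB. H3K4me3 at chr17:46696298-46704044 ended 15579 bp before an H3K27me3 piece of 542 bp, which ended 4413 bp before H3K4me3 at 46724579. That piece, chr17:46719624-46720165, held the only bases covered by H3K27me3 in both MDA-MB-231 lists in any HOX window, and with peaks scored at least 100 no border was left. Without the first MDA-MB-231 H3K27me3 list there were 7 borders, and without the second 5. H3K4me3 of HOXA, HOXC and HOXD in this line lay in 2, 2 and 4 stretches of 0.332 to 2.06 kb, with no H3K27me3 shared by both replicates nearby.

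**Figure D4:**
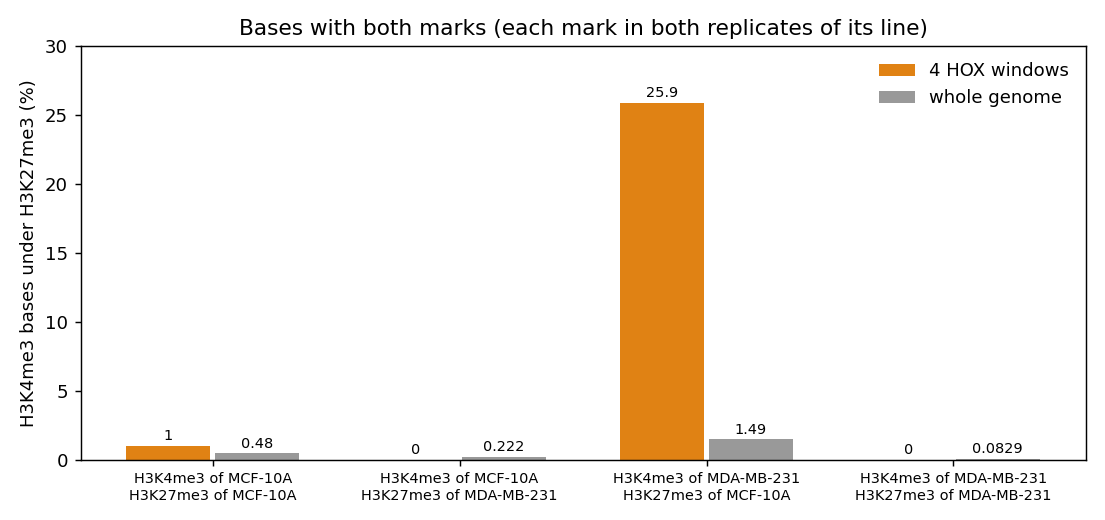
Share of H3K4me3 bases (percent, y axis) that lie under H3K27me3 of the same or the other line, in the 4 HOX windows (orange) and in the whole genome (grey), each mark taken from bases in both replicates. The tallest bar is H3K4me3 of MDA-MB-231 under H3K27me3 of MCF-10A, 25.9% in the windows and 1.49% genome-wide. H3K27me3 of MCF-10A was itself denser in the windows than genome-wide, and the shares are not corrected for this.

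Bases with H3K4me3 in 1 line and H3K27me3 in the other were found in 1 direction. Of the 10159 bases with H3K4me3 in both MDA-MB-231 replicates in the windows, 2631 (25.9%) carried H3K27me3 in both MCF-10A replicates, against 1.49% genome-wide. That H3K27me3 was itself denser in the windows, with 28287 bases in 555.004 kb against 8827722 bases in 3034.93 Mb genome-wide. The shares are not corrected for this density, so their difference shows no preference of H3K4me3 for such bases. The 2631 bases lay in HOXB (1423 bases, 42.9% of its H3K4me3 in MDA-MB-231), HOXA (708 bases, 32.8%) and HOXD (500 bases, 13.8%), and HOXC had 0. The HOXA bases lie in chr7:27239094-27240643, where both lines had H3K4me3. Of the 31476 bases with H3K4me3 in both MCF-10A replicates, 0 carried H3K27me3 in both MDA-MB-231 replicates, against 0.222% genome-wide. In these windows only 542 bases had H3K27me3 in both MDA-MB-231 replicates, which limits that count. Without the first MDA-MB-231 list, 488 bases did, all in HOXC near the HOXC13 end. Bases are not replicates, and no test was made.

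H3K9me2 had 1 peak in the 4 windows, chr2:177029213-177030703 (1491 bp) in HOXD, with a score of 62.1 in the first MCF-10A list. It covered 1.42% of the HOXD window. The second MCF-10A list and both MDA-MB-231 lists were listed at 0 in all 4 windows, so no window was covered in at least 2 lists and none entered the test. Without that filter HOXD alone had a value, -2.28 on the log2 scale with an SE of 2.10, which did not pass (limma adjusted p = 0.446).

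Over the 4 windows together, replicates placed their H3K4me3 on much the same bases. The Jaccard index, the shared bases over all bases covered by either list, was 0.723 between the MCF-10A lists and 0.732 between the MDA-MB-231 lists over the windows, against 0.0742 to 0.111 across lines. By window, the lowest indices within a line were those of MCF-10A in HOXD, 0.303 against 0.0587 to 0.212 across lines, and in HOXB, 0.532. For H3K27me3 over the windows the index was 0.431 in MCF-10A but 0.0366 in MDA-MB-231, and 0.0172 to 0.0353 across lines. The index between the MDA-MB-231 lists thus lay next to the range across lines. Within HOXB it was 0.187, against 0.032 to 0.0445 across lines, and in HOXA, HOXC and HOXD it was 0.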

How the data were processed

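Peak lists were made by the authors with hg19, CASAVA 1.6, Bowtie2, MACS 1.4 and bedtools, per the submitters' processing notes, which give no roles or settings. The labels' protocols state that replicates were normalised and combined, whereas the deposited lists used here are per replicate. Each list gives positions and a score, the authors' own value, used here to describe and filter peaks within a list. The 4 inputs had no peak list here and were not analysed. The lists hold no counts, so depth is unknown and precision rests on 2 replicates per group.

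The windows, members and tests were chosen with earlier results of these data known. Covered bases of the windows and of 100 kb tiles of chromosomes 1 to 22 and X were divided by the genome-wide cover of the list. Log2 of this enrichment plus 0.1 was tested with limma 3.58.1 (trend, empirical Bayes, R 4.3.3) on features covered in at least 2 of 4 lists, with Benjamini-Hochberg adjustment over all features and a threshold of 0.05. Peaks of a mark were merged into regions where they overlapped by at least 1 bp. The named regions were the widest per mark and window, and other regions were named after their values were seen. Python 3.11.15, NumPy 2.4.6, SciPy 1.17.1 and matplotlib 3.10.9 were used. The interval steps and the limma test were tested on simulated data. Marks at gene starts were not counted, since no annotation of hg19 was used.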

Additional observations from a re-analysis of the deposited data

How the results depend on the processing

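None of the 104 alternatives to the 8 log2 ratios reversed a sign. The H3K4me3 ratios of HOXA, HOXB and HOXC kept their side of the threshold under all 13 alternatives each, and HOXD lost its call with windows widened by 20 kb (2.62). Leaving out 1 list in turn gave 2.22 to 3.58 for HOXD. For H3K27me3 the ratios not called with all lists passed the limma threshold under some settings: HOXA with a pseudocount of 0.5 (-3.05), unscaled (-4.21), with scores of at least 100 (-6.72) and with equal numbers of peaks (-6.60); HOXB with a pseudocount of 0.5 (-2.66), unscaled (-3.73), with scores of at least 100 (-7.99) and with widened windows (-2.47); HOXD unscaled (-5.86) and with scores of at least 100 (-8.47). With scores of at least 100, both MDA-MB-231 lists had 0 H3K27me3 peaks in HOXA, HOXB and HOXD. Their values there were fixed by the added 0.1 and had no spread. These passes therefore show no more than the absence of such peaks. The same held for HOXA with equal numbers of peaks. Leaving out 1 list in turn gave -5.85 to -3.04 for HOXA, -3.79 to -1.99 for HOXB and -7.77 to -2.91 for HOXD. The -5.85 and the -7.77 each rest on a lone MDA-MB-231 list without a peak there, so their sizes depend on the added 0.1. HOXC lost its call when unscaled (2.55).

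Replicate numbers do not establish pairs, with 2 per line and no shared batch in the labels. Deviations of same-numbered lists correlated at 0.17 for H3K4me3 and 0.00464 for H3K27me3. With the replicate block the HOXC H3K27me3 ratio stayed at 3.51 but was not called (limma adjusted p = 0.0635), and no other window changed its call.

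H3K27me3 regions in MCF-10A alone (22) became 14 with scores of at least 100 and 64 counting either replicate, and 23 to 53 without 1 list. Those in MDA-MB-231 alone (0) became 17 with either replicate, and 0 to 14 without 1 list. Borders in MCF-10A (8) became 16 with either replicate and 4 with scores of at least 100. Borders in MDA-MB-231 (2) became 8 and 0, and 2 to 7 without 1 list. Bases with H3K4me3 in MCF-10A and H3K27me3 in MDA-MB-231 (0) became 488 with either replicate, and 0 to 488 without 1 list. The reverse (2631) became 5330 with either replicate and 1422 with scores of at least 100. The cause of these changes was not tested, apart from fewer or more peaks by construction. Marks at gene starts were not run. Unknown depth limits all values.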
